A study of Mus musculus with 12 samples.

Results

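Loss of REDD1 in exercised plantaris was described by setting 3 arrays from REDD1 knockout mice against 3 arrays from wild-type mice, all taken 1 hour after the end of 1 bout of aerobic exercise. These 6 arrays were taken, by the genotype and activity in their sample titles, from a series of 12, in which the other 6 came from sedentary wild-type and sedentary REDD1 knockout mice, 3 of each. Every mouse was male, 12 weeks old and without food for 3 hours, and the plantaris, a calf muscle built mainly of fast fibres, was removed under isoflurane. Strain, the allele, the deleted stretch of the gene and whether REDD1 was missing from all tissues are not given in the sources used here. The effect throughout is the knockout mean minus the wild-type mean on the log2 scale, over 22180 genes with 1 symbol, of which 13747 were bright enough to be tested.

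REDD1 is the product of the gene Ddit4. It is induced by energy stress, low oxygen and glucocorticoids, and it holds back mTORC1, a kinase complex that promotes protein synthesis and restrains autophagy, by way of the TSC1-TSC2 complex and the small GTPase Rheb. In skeletal muscle it is best known as a brake on protein synthesis during fasting, glucocorticoid excess and exercise.

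The arrays carried the profile of a fast muscle. On the 6 exercised arrays the log2 level of Acta1, skeletal actin, lay between 13.58 and 13.65, that of Ckm, muscle creatine kinase, between 13.15 and 13.28, and that of Myh4, the fast type IIb myosin, between 13.28 and 13.44. Pearson's r across clusters was 0.972 to 0.985 within the exercised groups and 0.972 to 0.983 between them, ranges that overlap. Array medians over the 12 arrays were 4.52 to 4.60. The number of arrays limits the precision.

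Ddit4 itself was lower in the knockout. The wild-type exercised arrays read 9.05, 8.40 and 8.62 on the log2 scale and the knockout exercised arrays 6.46, 5.72 and 6.77, with no overlap. The difference was -2.37 (SE 0.22, n = 3 per group), a 5.18-fold lower level with an adjusted p of 0.00011 by limma with Benjamini-Hochberg adjustment, and it passed in all 12 fits that left out 1 array. Sedentary wild-type muscle read 6.13, 5.83 and 6.02 and sedentary knockout muscle 5.32, 5.44 and 5.08, a difference of -0.71 that did not pass (adjusted p = 0.411, limma). The exercised difference minus the resting one was -1.66 (SE 0.31), which did not pass over all genes (adjusted p = 0.633, limma). Knockout levels stayed above the median of the whole table, 4.56, in every array, and whether the cluster's probes lie inside the deleted stretch was not tested.

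Across the transcriptome few genes separated the genotypes after exercise. At an adjusted p under 0.05, 24 of 13747 genes were called (0.175%), 13 higher in the knockout (0.0946%) and 11 lower (0.08%), and 9 differed by at least 2-fold as measured. For Rnase2a and Gm15446 among these 9, the difference was under 2-fold when arrays under the table median were set to it. At an unadjusted p under 0.05 there were 905 genes (6.58%), 436 higher (3.17%) and 469 lower (3.41%). Groups did not overlap for all 24 called genes and for 1612 genes in all (11.7%), 833 of them higher (6.06%) and 779 lower (5.67%). The median effect over all tested genes was -0.0021, with an SD of 0.18 between genes. The count of 24 depended on single arrays: it was 40 without wild-type exercised replicate 1, 12 without wild-type exercised replicate 2, 5 without wild-type exercised replicate 3, 7 without knockout exercised replicate 1 and 13 without knockout exercised replicate 2. Ddit4, Pttg1, Ddost, Rab6b and the predicted gene 2610507I01Rik passed in every one of these fits and in those that left out the remaining arrays. The other 19 passed in 2 to 11 of the 12 fits. With no moderation, which takes each gene's spread from its own arrays alone, 2610507I01Rik was the only gene called. Of the 24, 21 remained called without wild-type exercised replicate 1, 11 without replicate 2 and 5 without replicate 3, and 7, 12 and 17 without knockout exercised replicates 1, 2 and 3, while 19 to 22 remained called without 1 sedentary array. The predicted genes 2610507I01Rik and Gm15446 fall outside the rule for named genes and are named because their values were seen. After quantile normalisation 26 genes were called, 11 higher and 15 lower, against 13 and 11 as deposited.

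**Figure D1:**
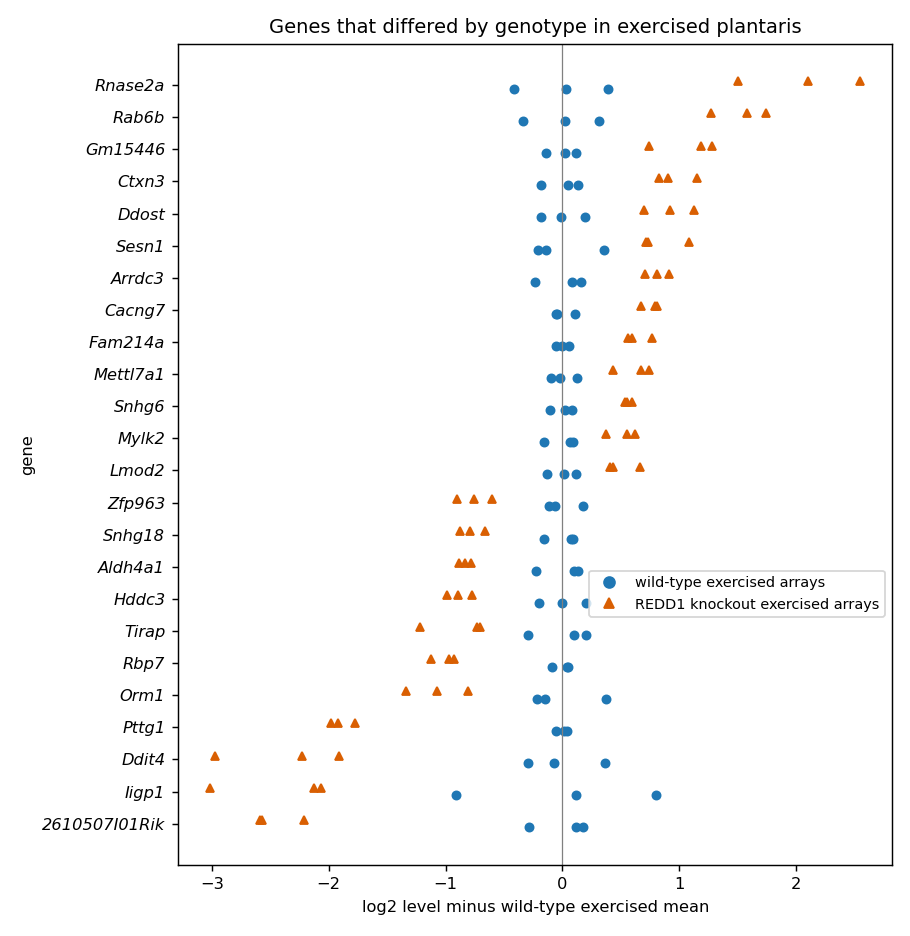
Log2 level of the 24 called genes on the 6 exercised arrays, each shown as its difference from the mean of the wild-type exercised arrays, with circles for wild type and triangles for REDD1 knockout. The 13 genes higher in the knockout and the 11 lower separate the genotypes without overlap. Under the table median lie all 3 knockout points of 2610507I01Rik and all 3 wild-type points of Rnase2a and Gm15446.

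The first set of called genes differed by genotype in sedentary muscle as well. Of the 24 genes, 9 were also called at rest, which is 37.5% of the exercised calls and 47.4% of the 19 genes called at rest (0.138% of the genes tested). Pttg1, securin, which restrains separase until chromosomes part, fell in the knockout. Wild-type exercised arrays read 6.98, 7.07 and 7.05 and knockout exercised arrays 5.11, 5.05 and 5.26, tight in both groups and far apart. The difference was -1.89 (SE 0.18, adjusted p = 0.00011, limma), a 3.71-fold lower level, beside -1.48 at rest. The predicted gene 2610507I01Rik read 5.84, 6.30 and 6.24 in wild-type exercised muscle and 3.55, 3.91 and 3.54 in the knockout, where all 3 arrays were under the table median. The difference as measured was -2.46 (SE 0.16, adjusted p = 1.73e-06, limma), or -1.57 with the arrays under the table median set to it, which is the lower bound on its size. At rest it was -2.21 as measured, again with all 3 knockout arrays under the table median.

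Ddost and Rab6b rose in the knockout in both conditions. Ddost, a subunit of the oligosaccharyltransferase that attaches N-linked glycans in the endoplasmic reticulum, read 8.94, 9.31 and 9.11 in wild-type exercised muscle, where the knockout read 9.82, 10.24 and 10.04. Every knockout array lay above every wild-type array, by 0.91 on average (SE 0.11, 1.88-fold, adjusted p = 0.00237, limma), and the resting difference was 1.0. Rab6b, a GTPase of Golgi transport, read 4.08, 4.73 and 4.44 in wild-type and 6.0, 6.16 and 5.69 in knockout exercised muscle. That is a difference of 1.53 (SE 0.19, adjusted p = 0.00237, limma), beside 1.55 at rest. As 2 of the 3 wild-type exercised arrays were under the table median, the difference was also taken with them set to it, and was 1.34. The gene has 2 clusters, and the mean over both gave 0.73 (SE 0.15), which did not pass (adjusted p = 0.0943, limma). Rnase2a, a secreted ribonuclease of a family with close copies, differed by 2.05 (SE 0.38, adjusted p = 0.0464, limma), from 3.30, 2.86 and 3.66 to 4.77, 5.37 and 5.82. All of its wild-type exercised arrays were under the table median, and with them set to it the difference was 0.77. The exercised call of Rnase2a held in 3 of 12 fits without 1 array.

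The remaining 4 genes of this set were lower in the knockout. Aldh4a1, which oxidises an intermediate of proline breakdown, read 6.99, 6.62 and 6.95 against 5.97, 6.07 and 6.02, a difference of -0.83 (SE 0.12, adjusted p = 0.00912, limma), and -0.91 at rest. Rbp7, an intracellular retinol-binding protein, read 6.55, 6.68 and 6.68 against 5.66, 5.70 and 5.51, a difference of -1.01 (SE 0.15, adjusted p = 0.00912, limma), and -0.85 at rest. For Rbp7 the spread within a genotype was a small part of the gap between genotypes. For Aldh4a1 the wild-type exercised arrays were spread more widely, and the groups did not overlap. Hddc3 (-0.88, adjusted p = 0.0124) and Tirap, an adaptor of Toll-like receptors (-0.89, adjusted p = 0.0439, limma), differed by -0.94 and -0.89 at rest. The exercised call of Tirap held in 2 of 12 fits without 1 array.

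Another 9 called genes, Ddit4 among them, had the same sign of difference and an unadjusted p under 0.05 at rest without passing there. Arrdc3, an arrestin-domain protein that takes part in the trafficking of beta-adrenergic receptors, read 9.46, 9.14 and 9.54 in wild-type exercised muscle, where the knockout read 10.19, 10.29 and 10.09. The lowest knockout array was above the highest wild-type array, and the difference was 0.81 (SE 0.13, 1.75-fold, adjusted p = 0.0188, limma) beside 0.50 at rest. Iigp1, an interferon-inducible GTPase of defence against intracellular parasites, stood at 6.06, 7.77 and 7.08 against 3.96, 4.85 and 4.90. The groups did not overlap although the wild-type arrays were spread widely, and the difference was -2.40 (SE 0.35, 5.28-fold, adjusted p = 0.00844, limma) beside -1.51 at rest. The knockout array at 3.96 was under the table median and the knockout mean, 4.57, was close to it, so this size is as measured near that level.

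The other 6 genes of these 9 were higher in the knockout. Mylk2, the myosin light chain kinase of skeletal muscle, read 10.86, 10.88 and 10.64 in wild-type and 11.41, 11.35 and 11.17 in knockout exercised muscle, a shift of all 3 arrays by 0.51 on average (SE 0.08, 1.43-fold, adjusted p = 0.0188, limma) beside 0.25 at rest. Lmod2, leiomodin 2, which nucleates and elongates sarcomeric thin filaments, read 11.18, 10.94 and 11.08 against 11.49, 11.73 and 11.47, a difference of 0.50 (SE 0.09, adjusted p = 0.0495, limma) that passed in 2 of 12 fits without 1 array. Cacng7, an auxiliary subunit of calcium channels and AMPA receptors, differed by 0.76 (adjusted p = 0.00614, limma), and Ctxn3 by 0.96 (adjusted p = 0.00595, limma). The snoRNA host transcript Snhg6 (0.56) and Fam214a (0.64) completed the set.

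The last 6 called genes had an unadjusted p of 0.05 or more at rest, which does not show that they did not differ there. Orm1, orosomucoid, an acute-phase plasma protein whose close copies an array may not tell apart, read 7.37, 7.30 and 7.89 in wild-type exercised muscle. It read 6.19, 6.45 and 6.71 in knockout exercised muscle. Sedentary wild-type muscle read 6.18, 6.44 and 6.40 and sedentary knockout muscle 6.2, 6.42 and 6.23, so the wild-type exercised arrays alone stood above the other 9. The exercised difference was -1.08 (SE 0.16, 2.11-fold, adjusted p = 0.00912, limma) and the resting one -0.06.

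Sesn1, sestrin 1, belongs to a family that holds mTORC1 back through GATOR2 when leucine is scarce. Wild-type exercised arrays read 8.0, 7.5 and 7.43 and knockout exercised arrays 8.73, 8.37 and 8.36, without overlap. At rest 7.89, 7.56 and 7.58 stood against 7.71, 8.05 and 8.0, with overlap. The difference was 0.84 after exercise (SE 0.16, 1.79-fold, adjusted p = 0.0495, limma) and 0.25 at rest. This call lay at the threshold. It held in 2 of the 12 fits without 1 array, those without wild-type exercised replicate 1 and without wild-type sedentary replicate 1, and in 3 of the 10 other alternatives. In the other 10 fits without 1 array its adjusted p in limma was between 0.0558 and 0.283.

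The remaining 4 of the 6 were Snhg18 (-0.78, adjusted p = 0.0411, limma), another snoRNA host transcript, the zinc-finger gene Zfp963 (-0.75, adjusted p = 0.0227), Mettl7a1, of a family with close copies (0.61, adjusted p = 0.0286), and Gm15446 (1.07, adjusted p = 0.0286). Snhg18 read 5.25, 5.48 and 5.49 against 4.53, 4.62 and 4.74, with the lowest knockout array under the table median. Its call held in 2 of 12 fits without 1 array. Zfp963 read 6.47, 6.42 and 6.71 against 5.63, 5.93 and 5.77, and Mettl7a1 read 7.34, 7.27 and 7.49 against 8.11, 8.04 and 7.80. For Gm15446 all 3 wild-type exercised arrays were under the table median, at 4.11, 3.95 and 4.21, against 5.27, 5.37 and 4.83, and with them set to it the difference was 0.60. Resting differences of these 4 genes were -0.10, -0.14, 0.22 and 0.09, and for Mettl7a1 the groups did not overlap at rest.

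**Figure D2:**
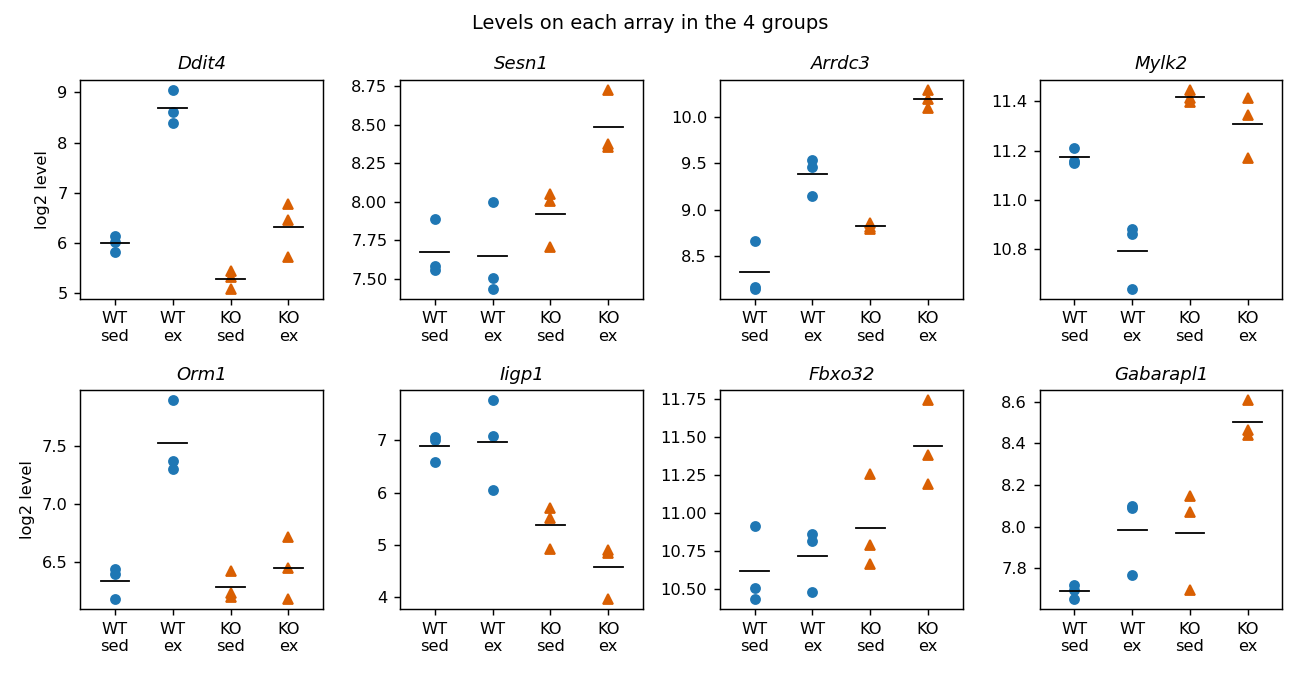
Log2 level (y axis) of Ddit4, Sesn1, Arrdc3, Mylk2, Orm1, Iigp1, Fbxo32 and Gabarapl1 on all 12 arrays, 1 point per array and a bar at each mean, for wild-type (WT) and REDD1 knockout (KO) muscle, sedentary (sed) or exercised (ex). Ddit4 and Orm1 were highest on the wild-type exercised arrays and Sesn1 and Arrdc3 on the knockout exercised arrays, where Fbxo32 and Gabarapl1, which did not pass, were highest on average too.

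The promoters of Ddit4 and of Sesn1 and Arrdc3, called genes that rose in the knockout, are shown because Ddit4 is the gene removed, Sesn1 is the called gene of the mTORC1 regulators and Arrdc3 was called with a similar size of difference. Each is the 250 bases before the annotated start in RefSeq, build GRCm38.p6, 5′ to 3′ on the gene's strand: Ddit4 at chr10:59951771-59952020 on the minus strand, Sesn1 at chr10:41810324-41810573 and Arrdc3 at chr13:80883134-80883383, both on the plus strand. Sesn1 has 2 listed starts and Arrdc3 has 3, and the first was used. Capitals mark the CCAAT box (CCAAT or its reverse complement) and the GC box (GGGCGG or its reverse complement).
Ddit4: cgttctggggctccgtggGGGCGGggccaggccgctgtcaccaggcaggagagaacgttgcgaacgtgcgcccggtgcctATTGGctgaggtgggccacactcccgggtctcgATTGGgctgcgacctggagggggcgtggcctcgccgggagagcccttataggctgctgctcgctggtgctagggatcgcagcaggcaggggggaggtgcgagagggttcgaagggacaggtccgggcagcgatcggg
Sesn1: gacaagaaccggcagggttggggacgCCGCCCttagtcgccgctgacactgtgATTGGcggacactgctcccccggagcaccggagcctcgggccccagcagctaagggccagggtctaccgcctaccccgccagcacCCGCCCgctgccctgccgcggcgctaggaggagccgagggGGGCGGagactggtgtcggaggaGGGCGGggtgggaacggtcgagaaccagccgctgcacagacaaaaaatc
Arrdc3: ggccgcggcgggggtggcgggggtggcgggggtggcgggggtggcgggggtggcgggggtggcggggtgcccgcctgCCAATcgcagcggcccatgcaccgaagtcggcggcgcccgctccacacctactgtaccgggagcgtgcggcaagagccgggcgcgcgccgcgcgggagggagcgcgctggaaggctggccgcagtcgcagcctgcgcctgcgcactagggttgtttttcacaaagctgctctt

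The Ddit4 window held CCAAT in reverse complement starting 170 and 137 bases before the start, and GGGCGG 232 bases before it. The Sesn1 window held 1 CCAAT in reverse complement, at 197 bases, and GGGCGG on either strand at 224, 112, 72 and 49 bases. The Arrdc3 window held CCAAT at 173 bases and no GGGCGG. Of the 24 called genes, 19 had a promoter in the table. Searched on both strands, CCAAT was in 10 of these 19 windows and in 34.5% of all 27025 windows of that length, and GGGCGG was in 9 of 19 and in 32.9%. The 27025 windows include genes that were not tested here and so could not be called, so these shares come from unlike sets. The letters GTAAACA, a forkhead core that overlaps neither motif, were in 0 of 19 and in 3.09%. A match is a description of the letters and not a site of binding.

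Genes next in order by p were read to fill the named set and did not pass. Pik3ip1, an inhibitor of PI3-kinase, differed by 0.72 (adjusted p = 0.0552, limma), Adhfe1 by 0.78 (0.0558) and Slc25a33, a mitochondrial carrier of pyrimidine nucleotides, by 0.66 (0.0711). On the lower side were Dnlz (-0.61), the water channel Aqp4 (-0.74), Rab30 (-0.76), Plac9a (-0.50) and Lypd6 (-0.71), with adjusted p from 0.0552 to 0.078 in limma. Actc1, cardiac actin, which skeletal muscle expresses mainly during development and repair, differed most in size among them. Its levels were 9.12, 9.62 and 9.13 against 7.69, 7.88 and 6.97, a gap of -1.77 without overlap that did not pass (adjusted p = 0.0558, limma).

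Genotype differences after exercise were set beside those at rest, which come from other arrays and share only the estimate of spread. All 24 genes called after exercise had the same sign at rest, 18 of them with an unadjusted p under 0.05 there. Of the 19 genes called at rest, 6 higher and 13 lower, 18 had the same sign after exercise. Each list of calls favours the condition it was chosen in: 18 of the 24 were larger in size after exercise and 16 of the 19 at rest. Among the 19, the gene with the opposite sign after exercise was Mt2, metallothionein 2, a metal-binding and glucocorticoid-inducible protein. It differed by 1.29 at rest and by -0.09 after exercise, or by 0.16 without wild-type exercised replicate 1 and 0.03 without knockout exercised replicate 3. Across all 13747 genes the effects in the 2 conditions had a Pearson's r of 0.259 and a Spearman's rho of 0.160. Genes are not independent replicates, and the pairs share the array platform and the fit. Backgrounds at rest were 7.7% of genes at an unadjusted p under 0.05 (3.32% higher, 4.38% lower) and 13.1% without overlap (5.35% higher, 7.73% lower).

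**Figure D3:**
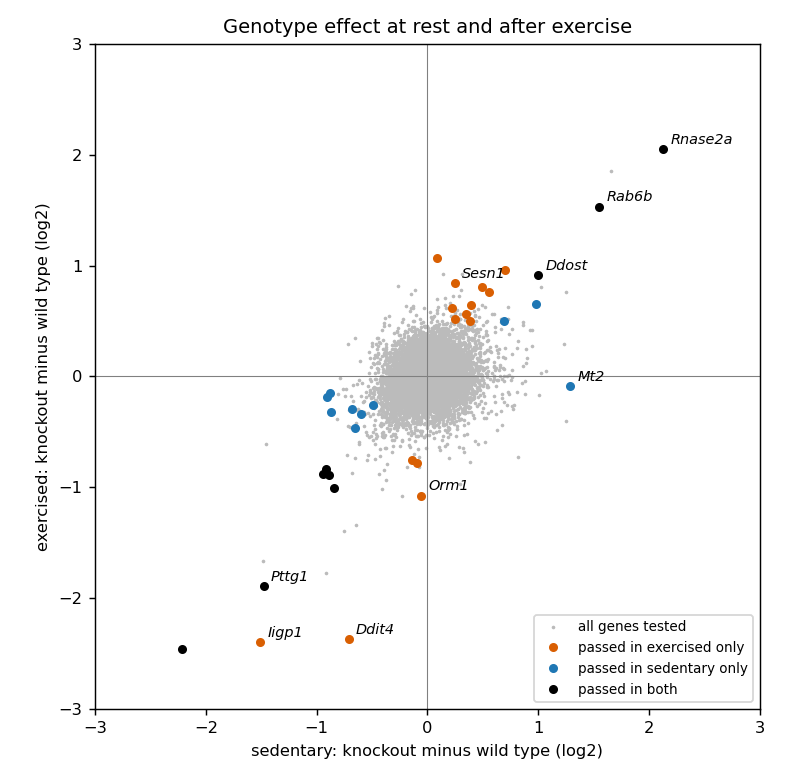
Knockout minus wild-type log2 difference at rest (x axis) against that after exercise (y axis) for each tested gene, in log2 units, with genes called in either or both conditions coloured. All 24 genes called after exercise share their sign at rest, and Orm1, at -1.08 after exercise and -0.06 at rest, lies far from the diagonal.

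No gene passed the test of the difference between exercised and sedentary genotype effects. In limma 0 of 13747 genes (0%) had an adjusted p under 0.05, the smallest adjusted p being 0.633, and 620 (4.51%) had an unadjusted p under 0.05. Among the 24 called genes, 8 had an unadjusted p under 0.05 for this difference: Ddit4, Orm1, Mylk2, Zfp963, Gm15446, Mettl7a1, Snhg18 and Sesn1. All of them had the larger genotype gap after exercise. That direction was favoured by the choice, because the 24 were called on the exercised difference, which enters this test. The 5 genes with the smallest p were Ddit4, Mt2 (-1.37), Orm1 (-1.02), Zfp846 (1.0), a zinc-finger gene, and Apbb3 (-0.68), an adaptor that binds the amyloid precursor protein. Mt2 read 11.52, 10.64 and 10.90 in wild-type and 11.21, 10.90 and 10.69 in knockout exercised muscle, groups that overlap fully.

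Because REDD1 acts on mTORC1, genes of that pathway were read as lists. The arrays give RNA levels, which are not a measure of mTORC1 activity. Of the 37 lists described, 21 had a median that turned sign when 1 of the 12 arrays was left out, all of them with a median within 0.12 of zero, so small medians carry no direction. Over all tested genes 0.175% were called, so 0 called genes in any list below is near that share. Among 19 tested components and regulators of mTORC1 and TSC, 0 passed, the median effect was 0.03 against -0.0021 for all genes, and 11 were higher. The lowest adjusted p were those of Eif4ebp1, the translation repressor that mTORC1 inactivates (0.42, SE 0.12, adjusted p = 0.325, limma), and Rhebl1, a relative of Rheb (0.50, SE 0.14, adjusted p = 0.35). For Rhebl1, 2 of the 3 wild-type exercised arrays were under the table median. Deptor, an inhibitory mTOR partner, differed by -0.24. In the sestrin, GATOR and Rag list, 1 of 26 passed, Sesn1, and the median was 0.04. Of the others, Mios of GATOR2 differed by 0.29, Nprl2 of GATOR1 by -0.31 and Flcn, folliculin, by 0.22, and these did not pass.

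Upstream of mTORC1, 0 of 20 genes of insulin, PI3-kinase and Akt signalling passed (0.175% of all genes). Their median was 0.08 and 14 were higher, with Foxo3 at 0.32, Foxo4 at 0.24 and the growth factor Igf1 at -0.63. Of 14 genes of AMPK and LKB1 signalling 0 passed, with a median of 0.01. Tbc1d1, a Rab GTPase-activating protein that AMPK and Akt phosphorylate to release the glucose transporter, came nearest at 0.48 (SE 0.10, adjusted p = 0.0795, limma).

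Programmes that mTORC1 drives showed 0 called genes in each list, near the share of 0.175% over all genes. These are RNA levels, and neither mTORC1 activity nor translation was measured by these arrays. Medians were 0.01 for 13 sterol and lipid genes under SREBP, 0.11 for 16 genes under ATF4, 0.02 for 19 ribosomal proteins and 0.02 for 21 genes of ribosome biogenesis. In the ATF4 list 12 of 16 were higher, Ddit3, the stress factor CHOP, by 0.26. The ribosomal protein gene Rpl3 lay at -0.44 (adjusted p = 0.736, limma).

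In the degradation lists the medians were positive and no gene passed (0.175% of all genes). Of 19 autophagy and lysosome genes 15 were higher in the knockout, with a median of 0.09. Groups did not overlap for 8 of 19, all higher, against 1 of 19 higher at rest and 6.06% of all genes. At an unadjusted p under 0.05 in limma, 3 of 19 were higher (3.17% of all genes) and 0 lower. Gabarapl1, of the ATG8 family that coats autophagosomes, read 8.09, 7.77 and 8.10 against 8.61, 8.46 and 8.44, a gap of 0.52 (SE 0.12, adjusted p = 0.199, limma). The autophagy receptor Sqstm1 differed by 0.26, Map1lc3b by 0.25 and the lysosomal regulator Tfeb by 0.21.

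Of 17 ubiquitin-pathway genes of muscle atrophy 12 were higher, with a median of 0.10. Fbxo32, the ligase atrogin-1, read 10.86, 10.48 and 10.81 against 11.74, 11.38 and 11.19, each knockout array above each wild-type array, a gap of 0.72 (SE 0.17, adjusted p = 0.198, limma) beside 0.29 at rest. Trim63, the ligase MuRF1, differed by 0.65 (adjusted p = 0.539) and Mul1, a mitochondrial ligase, by -0.39 (adjusted p = 0.283, limma). Resting differences were 0.50 for Trim63, with overlap, and -0.29 for Mul1, without overlap.

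**Figure D4:**
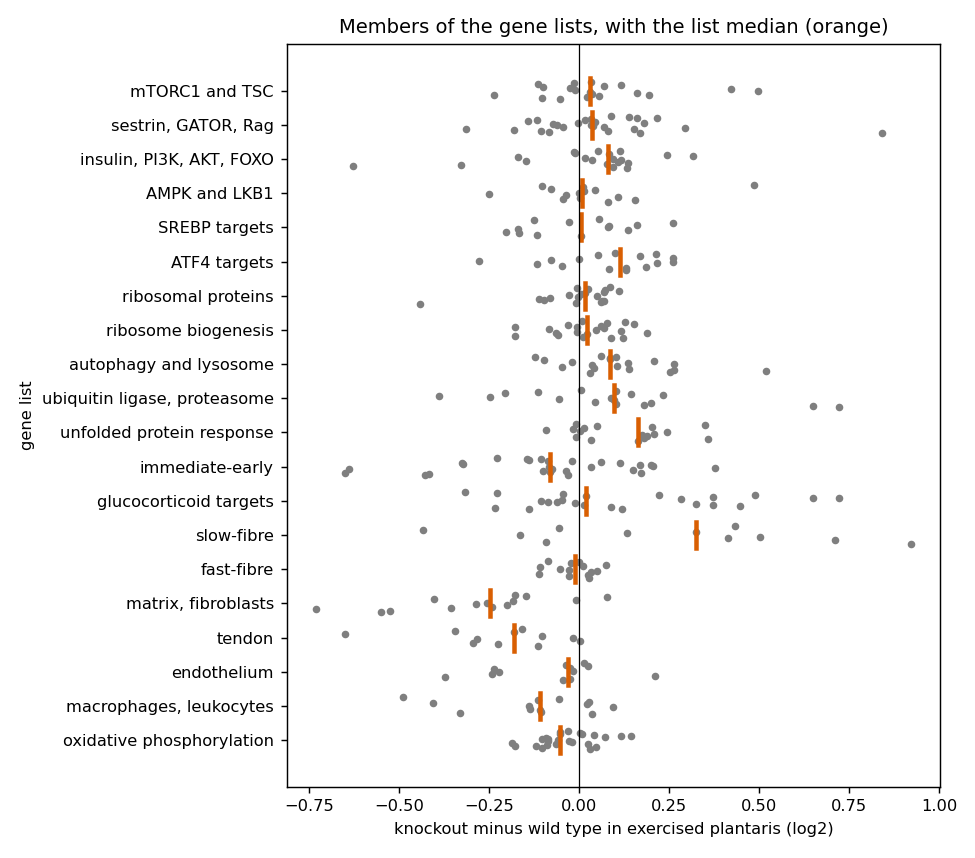
Knockout minus wild-type log2 difference after exercise (x axis) of each tested member of 20 of the gene lists (points), with the list's median (orange bar). List medians lie between -0.25 for matrix and fibroblast markers and 0.33 for slow-fibre genes, and Sesn1 at 0.84 is the only called gene among these points.

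Lists of the exercise response held no called gene unless named here (0.175% of all genes were called). For 27 immediate-early genes the median effect was -0.08, and it was 0.09 without wild-type exercised replicate 1. In them Junb differed by -0.65 (adjusted p = 0.435, limma), Fosl2 by -0.42 and Klf4 by -0.33. Of 20 metabolic exercise genes the median was -0.03, with the pyruvate dehydrogenase kinase Pdk4 at 0.37 and the coactivator Ppargc1a at 0.41. For 23 targets of the glucocorticoid receptor the median was 0.02 after exercise and 0.27 at rest. Leaving out 1 exercised array gave an exercised median of 0.04 to 0.16, the highest without wild-type exercised replicate 1. Without passing, 5 were higher after exercise at an unadjusted p under 0.05 (3.17% of all genes), Fbxo32, Trim63, Klf15 (0.45) and Cdkn1a (0.49) among them, and 1 was lower (3.41%). At rest 9 were higher (3.32%) and 0 lower (4.38%). The 5 became 1 without knockout exercised replicate 1 and 2 without wild-type exercised replicate 2. The test of the difference between conditions gave an unadjusted p under 0.05 for 4 of the 23, all with the lower genotype effect after exercise (2.36% of all genes).

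Median effects were 0.05 for 16 heat shock genes, 0.16 for 17 genes of the unfolded protein response, 0.09 for 17 hypoxia-inducible genes, -0.02 for 13 cytokines and myokines and -0.0029 for 16 clock genes. Without knockout exercised replicate 2 the medians were 0.05 for the unfolded protein list and 0.01 for the hypoxia list, and without wild-type exercised replicate 1 the clock genes had -0.11. In the unfolded protein list 13 of 17 were higher, the chaperone Dnajb9 by 0.36 and Herpud1, of endoplasmic reticulum degradation, by 0.24. The 15 p53 targets had a median of 0.15 and 1 called gene, Sesn1, which belongs to that list too. The 15 interferon-stimulated genes had a median of -0.09, or 0.03 without wild-type exercised replicate 1, and 1 called gene, Iigp1. Other members lay on both sides, with the guanylate-binding proteins Gbp7 at -0.51 and Gbp3 at 0.52 and Ifit2 at 0.38. Of the 3 wild-type exercised arrays, 2 were under the table median for Gbp3 and all 3 for Ifit2, which limits what these differences mean.

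Energy metabolism and fibre type genes held no called gene (0.175% of all genes were called). The median was -0.05 for 25 subunits of oxidative phosphorylation, of which Sdhb lay at -0.19, 0.06 for 19 genes of glycolysis and glycogen, with Pgam2 at -0.24 and Pgm2 at -0.31, and 0.03 for 17 genes of mitochondrial quality control. It was -0.11 for 12 neuromuscular junction genes, or 0.01 without wild-type exercised replicate 2, and 0.01 for 12 housekeeping genes. The 14 fast-fibre genes stayed within -0.11 and 0.07 and had a median of -0.01. Among them Acta1, Ckm, Myh4 and Tnnt3 read 13.07 to 13.65, where the highest value on any array was 13.86. Whether the top of the range limited their differences was not tested. The 11 slow-fibre genes had a median of 0.33, which fell to 0.08 without knockout exercised replicate 3, with the slow troponin Tnnt1 at 0.71, the slow myosin Myh7 at 0.92 and cardiac calsequestrin Casq2 at -0.43. Their mean deviation from the 12-array mean was 0.54 on that array, against 0.16 and -0.08 on the other knockout and -0.08, -0.06 and 0.02 on the wild-type exercised arrays.

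Markers of other cells were read in the same way, and in whole muscle fewer cells of a type and less RNA per cell cannot be told apart. Of 14 matrix and fibroblast markers 13 were lower in the knockout after exercise, with a median of -0.25, and 0 passed. Col1a1 lay at -0.55, Col1a2 at -0.52, Col3a1 at -0.73 and Col5a1 at -0.36, with adjusted p from 0.348 to 0.705 in limma. Groups did not overlap for 8 of the 14, all lower (5.67% of all genes). At an unadjusted p under 0.05 in limma, 4 of the 14 were lower (3.41% of all genes) and 0 higher. Those 4 became 1 without wild-type exercised replicate 2 or knockout exercised replicate 2, and 7 without knockout sedentary replicate 3. Members of a list share the arrays and are not independent. The mean deviation of the list was -0.23, -0.23 and -0.28 in the knockout against 0.04, 0.14 and -0.08 in the wild-type exercised arrays. At rest the median was 0.34, with mean deviations of 0.16, -0.13 and 0.94 in the knockout and -0.09, -0.13 and -0.11 in the wild type. Without knockout sedentary replicate 3, the array at 0.94, the resting median was 0.14, so its size rests largely on that array. For 11 of the 14 the test of that difference gave an unadjusted p under 0.05, all with the lower genotype effect after exercise (2.36% of all genes), and for 7 of the 14 without knockout sedentary replicate 3 or without wild-type exercised replicate 2.

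Tendon markers followed the same sign, with 10 of 11 lower and a median of -0.18. Kera, keratocan, lay at -0.65 (adjusted p = 0.283, limma), Col12a1 at -0.34 and the tendon transcription factor Mkx at -0.30. Medians were -0.17 for 11 adipocyte markers (Car3 at -0.13) and -0.11 for 13 macrophage and leukocyte markers (Cd14 at -0.49, C1qb at -0.41). Car3 read 13.18 to 13.37 on the exercised arrays, close to muscle creatine kinase, Ckm, at 13.15 to 13.28. Which cells its RNA came from was not tested. For 12 endothelial markers the median was -0.03 (Kdr at -0.37, Tie1 at -0.24). For 11 satellite cell and myogenic genes, 6 of them higher, it was 0.07, with Myod1 at -0.31 and its groups overlapping. For 10 smooth muscle and pericyte markers the median was -0.12 (Cspg4 at -0.37), or 0.02 without wild-type exercised replicate 1. For 7 Schwann cell and nerve markers it was -0.04, or 0.34 without wild-type exercised replicate 1 and -0.26 without knockout exercised replicate 2. Of 11 neutrophil markers 4 were bright enough to be tested, with a median of -0.11 and Lcn2 at -0.35, and the defining markers Ly6g, S100a8, S100a9, Camp, Ngp, Retnlg and Mmp8 were too dim. The red blood cell list had 1 tested member, at -0.04. None of these markers passed (0.175% of all genes), and the part of these cells in the called genes was not tested.

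**Figure D5:**
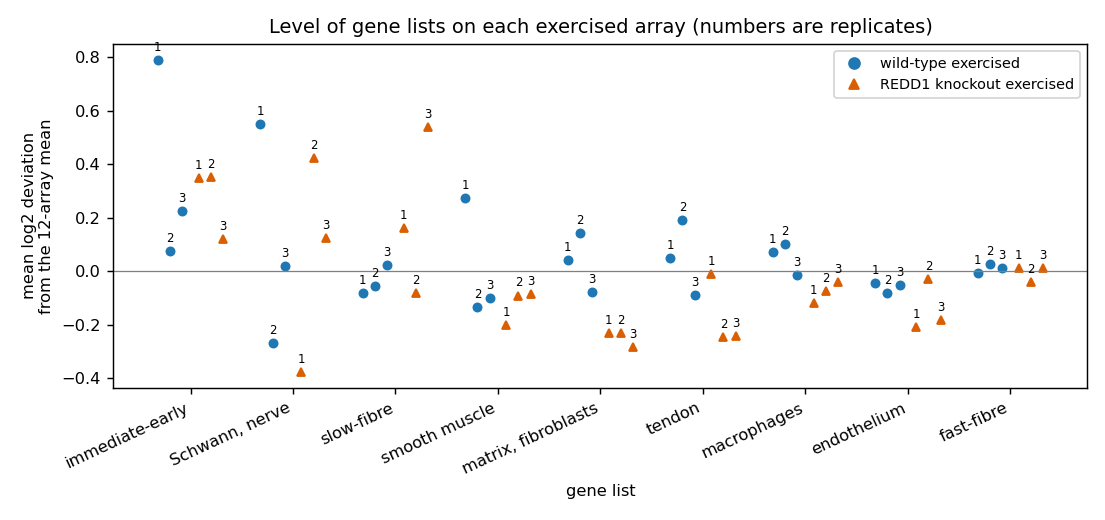
Mean deviation of each list's members from their 12-array mean, in log2 units, on each exercised array (circles for wild type, triangles for REDD1 knockout, with replicate numbers). Wild-type replicate 1 stands high for immediate-early genes at 0.79 and for Schwann cell and nerve markers at 0.55, knockout replicate 3 is high for slow-fibre genes at 0.54, and the matrix list is lower on all 3 knockout arrays.

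Genes that lie next to Ddit4 on its chromosome were read to describe the region around the targeted gene. Among the 40 tested genes nearest to Ddit4, 20 on each side, 0 were called (0.175% of all genes) and 1 had an unadjusted p under 0.05 (6.58%). Their effects ran from -0.20 to 0.60 with a median of -0.02. The 24 called genes lay on 14 chromosomes, with 56 tested genes between Sesn1 and Ddit4, 7 between Ctxn3 and Iigp1 and 21 between Ddost and Aldh4a1.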

How the data were processed

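Whole-transcript arrays of plantaris RNA from 12 male mice were used, 3 per group. The deposited values were read as log2 expression per transcript cluster. The authors used Partek, per the submitters' processing notes; the log base, background correction, normalisation and summarisation are not given in the sources used here. The members and gene lists were chosen with earlier results of these data known. Of 41345 clusters, 23521 had 1 symbol in the platform annotation, 1814 several and 16010 none. The brightest cluster stood for a gene. A gene was tested if above the table median, 4.56, in at least 3 arrays (13747 of 22180). All 12 arrays entered 1 fit in R 4.3.3 with limma 3.58.1 (intensity trend, 8 residual degrees of freedom, Benjamini-Hochberg, two-sided, called at 0.05), tested on simulated data. Array weights used statmod 1.5.0.

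The named genes were Ddit4, up to 15 called genes per direction (filled by smallest p), up to 4 per list and 5 for the difference. Predicted genes were counted and not named, apart from those said to be named after their values were seen. A list is described by its counts and median, with no test. Replicates were numbered in sample order and pair nothing. The labels name separate mice and no pooling, litter or batch, so p-values rest on the spread between these arrays, moderated over the genes tested. Alternatives changed the arrays in the fit, the filter, normalisation, cluster rule, moderation and array weights. Setting arrays under the table median to it, for called genes with a group mean under it, and the resting list medians without 1 array were added after the data were seen. Clusters with no symbol or several were fitted separately.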

Additional observations from a re-analysis of the deposited data

Results flagged for a closer look

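Transcript clusters that the platform annotation pairs with no symbol or with several lie outside the comparisons above, and 16 of the 8120 tested passed in exercised muscle (limma, adjusted p under 0.05), 10 higher and 6 lower in the knockout. All 16 have no symbol, and 5 were also called at rest. They are not 16 separate measurements: 4 of the 6 lower clusters (17548311, 17548313, 17548642 and 17548644) have the same value on every array, a difference of -1.47, which leaves 13 distinct sets of values. The cluster with the largest difference, 17549080, read 3.36, 2.90 and 3.27 in wild-type and 8.36, 7.52 and 8.82 in knockout exercised muscle, a difference of 5.06 on the log2 scale, beside 3.43 at rest. All 3 wild-type exercised arrays were under the table median there. Clusters 17549054 and 17549096 differed by 5.0 and 4.64 with array values close to those of 17549080, and cluster 17420443 by -1.60.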

How the results depend on the processing

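After exercise 24 genes were called. The count was 13 with only the 6 exercised arrays (12 of them among the 24), 1 with no moderation and 89 with array weights (36 higher, 53 lower, all 24 included), where wild-type exercised replicate 1 had the lowest weight, 0.366. Leaving out 1 array gave 5 to 40. At rest 19 genes were called, 1 with no moderation, and 6 to 27 without 1 array, with 6 when knockout sedentary replicate 1 and 12 when wild-type sedentary replicate 1 was left out. The difference of the genotype effects called 0 genes in each setting run; it was not run with 6 arrays. The causes of these shifts were not tested. Mt2, at -0.09, ranged from -0.28 to 0.16 without 1 array and changed sign without wild-type exercised replicate 1 (0.16) and knockout exercised replicate 3 (0.03). No other gene whose exercised difference is given in the report changed sign in an alternative that was run. No paired analysis was possible because the sample numbers in the labels run on across groups and the replicate numbers only follow sample order. A filter requiring values above the table median on all 12 arrays left 18 of the 24 genes to test, of which 16 passed. Precision is limited by 3 arrays per group, and levels under the table median, as for Rnase2a and Gm15446, limit what a difference means.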

Other observations

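Genes called at rest that did not pass after exercise numbered 10. Among them, Mt2 read 9.06, 9.09 and 8.93 in wild-type and 10.45, 10.06 and 10.43 in knockout sedentary muscle, without overlap. Glo1, glyoxalase 1, which clears methylglyoxal, and Mmut, methylmalonyl-CoA mutase, were lower in the knockout at rest, with differences of -0.60 (SE 0.11) and -0.50 (SE 0.09). Hsd17b7, an enzyme of cholesterol synthesis, and Ahcy, which hydrolyses S-adenosylhomocysteine, were higher, by 0.98 (SE 0.14) and 0.69 (SE 0.10). Each passed in limma at an adjusted p under 0.05. The exercised values of Glo1, Mmut, Hsd17b7 and Ahcy had the same sign.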
